A study of Homo sapiens and Mus musculus with 18 samples.

Results

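The genes described here encode the subunits of integrins and laminins, together with DST and PLEC, whose products link the integrin of hemidesmosomes to keratin filaments. They were chosen by name: human genes in the files named ITGA or ITGB with a number or letter, or LAMA, LAMB or LAMC with a number, without pseudogenes, plus DST and PLEC. Reported here are 39 of the 34505 gene identifiers in the human count tables: 18 integrin alpha genes, 8 integrin beta genes, 5 laminin alpha, 4 laminin beta and 2 laminin gamma genes and the 2 linker genes. The study sequenced RNA of pancreatic cancer lines with more or less K17 (keratin 17, encoded by KRT17), a filament protein of skin-like epithelia, and its title concerns K17 in mitochondria and resistance to chemotherapy. The 12 human libraries come from 4 groups of 3. L3.6, labelled as a pancreatic adenosquamous carcinoma line, was sequenced as K17 wild type and after CRISPR-Cas9 knockout of K17, and PANC-1, labelled as pancreatic ductal adenocarcinoma, with an empty vector or with K17 over-expression. All 4 groups were grown in the same serum-containing medium with antibiotics and carried no other stated treatment, and the sources used here do not say whether a group is 1 clone or a pool, nor which promoter drives K17. The 6 mouse libraries of the series were not used here.

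Integrins are receptors of 1 alpha and 1 beta chain that bind the matrix outside the cell and couple it to the cytoskeleton inside. Laminins are trimers of 1 alpha, 1 beta and 1 gamma chain and form the main sheet of the basement membrane. In stratified epithelium the integrin of the ITGA6 and ITGB4 chains binds laminin-332, of which LAMA3 and LAMB3 encode chains, and is tied through plectin (PLEC) and dystonin (DST) to keratin filaments, in a junction called the hemidesmosome. Most other integrins, such as those with the ITGB1 or ITGAV chain, connect to actin.

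RefSeq promoter windows (GRCh38.p14) could be matched for 27 of the 39 genes. Windows of 4 genes are shown: LAMB3 and ITGB6, which carry differences between the lines described below, and ITGA6 and DST, which moved together in L3.6. Each is the 200 bases from 250 to 51 bases before the RefSeq start, read 5′ to 3′ on the gene's strand. Capitals mark matches, on either strand, to the AP-1 motif TGANTCA, the TEAD motif GGAATG or the GC box GGGCGG. Matches of different motifs can overlap, as a TEAD and a GC box match do in DST.

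LAMB3, chr1:209652476-209652675, minus strand: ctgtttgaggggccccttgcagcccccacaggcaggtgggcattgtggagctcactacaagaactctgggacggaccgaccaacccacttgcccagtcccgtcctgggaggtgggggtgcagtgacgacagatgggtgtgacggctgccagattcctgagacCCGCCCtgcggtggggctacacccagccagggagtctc

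ITGB6, chr2:160200323-160200522, minus strand: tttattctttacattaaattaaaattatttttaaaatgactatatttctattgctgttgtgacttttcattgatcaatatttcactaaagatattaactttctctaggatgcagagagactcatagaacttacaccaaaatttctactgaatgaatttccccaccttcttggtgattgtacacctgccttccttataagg

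ITGA6, chr2:172427086-172427285, plus strand: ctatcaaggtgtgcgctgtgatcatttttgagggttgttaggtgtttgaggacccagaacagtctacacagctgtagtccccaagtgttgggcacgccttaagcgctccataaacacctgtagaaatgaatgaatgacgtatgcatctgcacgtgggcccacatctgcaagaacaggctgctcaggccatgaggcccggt

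DST, chr6:56954881-56955080, minus strand: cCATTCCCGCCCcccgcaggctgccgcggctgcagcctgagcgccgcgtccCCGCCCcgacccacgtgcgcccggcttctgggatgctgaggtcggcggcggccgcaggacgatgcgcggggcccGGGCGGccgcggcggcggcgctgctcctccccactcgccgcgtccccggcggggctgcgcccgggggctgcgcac

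The LAMB3 window holds a GC box at 88 to 83 bases before the start. The ITGB6 window, with a GC content of 29.5%, and the ITGA6 window, with 51.5%, hold none of the 3 motifs. The DST window, with a GC content of 83%, holds a TEAD match at 249 to 244 bases and GC boxes at 244 to 239, 199 to 194 and 125 to 120 bases before the start. Each gene was read at a single RefSeq start. That of DST lies just before the GENCODE 29 gene start, so no start inside the gene is shown. Which forms of DST it serves was not tested. Among the 27 members with a window, LAMA3 alone had AP-1 matches, at 125 to 119 and 69 to 63 bases before its RefSeq start. That start lies 183577 bases inside the GENCODE 29 gene. Over all 35116 RefSeq promoter windows of this length the AP-1 letters occur in 5.27%, the TEAD letters in 9.71% and the GC box in 35%. Among the 27 member windows these counts were 1, 5 (DST, ITGA5, ITGA10, ITGB1 and LAMA2) and 14. The RefSeq start of ITGB1 lies 47562 bases inside its GENCODE 29 gene. These matches describe letters only. No window was matched for ITGA3, ITGB3, ITGB4 or PLEC, among others.

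The L3.6 libraries held 9485257 to 15476629 counts and the PANC-1 libraries 59671178 to 70789559, so low genes were measured more closely in PANC-1. KRT17 followed the labels, at 115 ± 8.66 CPM (counts scaled to a common library size) in wild-type and 14.6 ± 1.03 in knockout L3.6 (SD, n = 3 each). PANC-1 empty vector libraries had 2, 0 and 0 KRT17 counts and K17 libraries 8597 to 9884. The epithelial marker EPCAM was present in every library, at 425 to 497 CPM in L3.6 and 28.8 to 36.6 CPM in PANC-1. CDH1, another epithelial marker, averaged 1.64 CPM in L3.6 knockout, 1.52 in L3.6 wild type, 0.330 in PANC-1 empty vector and 0.847 in PANC-1 K17. KRT18 averaged 12.9 to 18.0 CPM over the 4 groups, and KRT8 and KRT19 at least 338 CPM in each. In L3.6 the squamous marker TP63 reached 387 ± 9.80 CPM without K17 and 278 ± 11.0 CPM with it (SD, n = 3 each), whereas KRT14, another squamous marker, had at most 4 counts in any L3.6 library. PANC-1 empty vector replicate 2 stood apart. Its share of counts from mitochondrial genes was 18.8%, while the other 5 PANC-1 libraries had 9.88% to 10.8%, and the 39 genes took 0.0941% against 0.364% to 0.436%. Calls in PANC-1 are therefore counted with and without that library. In L3.6, leaving out wild-type replicate 1 raised the genes called from 488 higher and 847 lower to 956 higher and 1537 lower, and the results without it are given below. The 39 genes took 0.615% to 0.628% of all counts in L3.6 knockout and 0.505% to 0.549% in the wild type. The labels do not say that replicates are separate cultures, so p-values measure the spread between these libraries, which may be technical.

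In L3.6, most of the member genes that differed were lower in K17 wild-type than in knockout cells. Of the 39 genes 29 had enough counts to be tested, and 8 were lower in the wild type and 1 was higher (edgeR quasi-likelihood test, Benjamini-Hochberg adjusted over all genes, threshold 0.05). The 8 are LAMA3 and LAMA5 of the laminins, ITGA6 and DST of the hemidesmosome, and ITGAV, ITGB6, ITGB8 and ITGAE. The one higher gene was ITGA3. Over all 13891 genes tested 9.61% were called, 6.1% lower and 3.51% higher. The median log2 fold change (wild type minus knockout) was -0.18 over the 29 genes and 0.005 over all genes tested. The wild-type and knockout values did not overlap for 17 of the 29, against 33.2% of all genes tested. All fold changes below are given as K17-high minus K17-low.

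**Figure D1:**
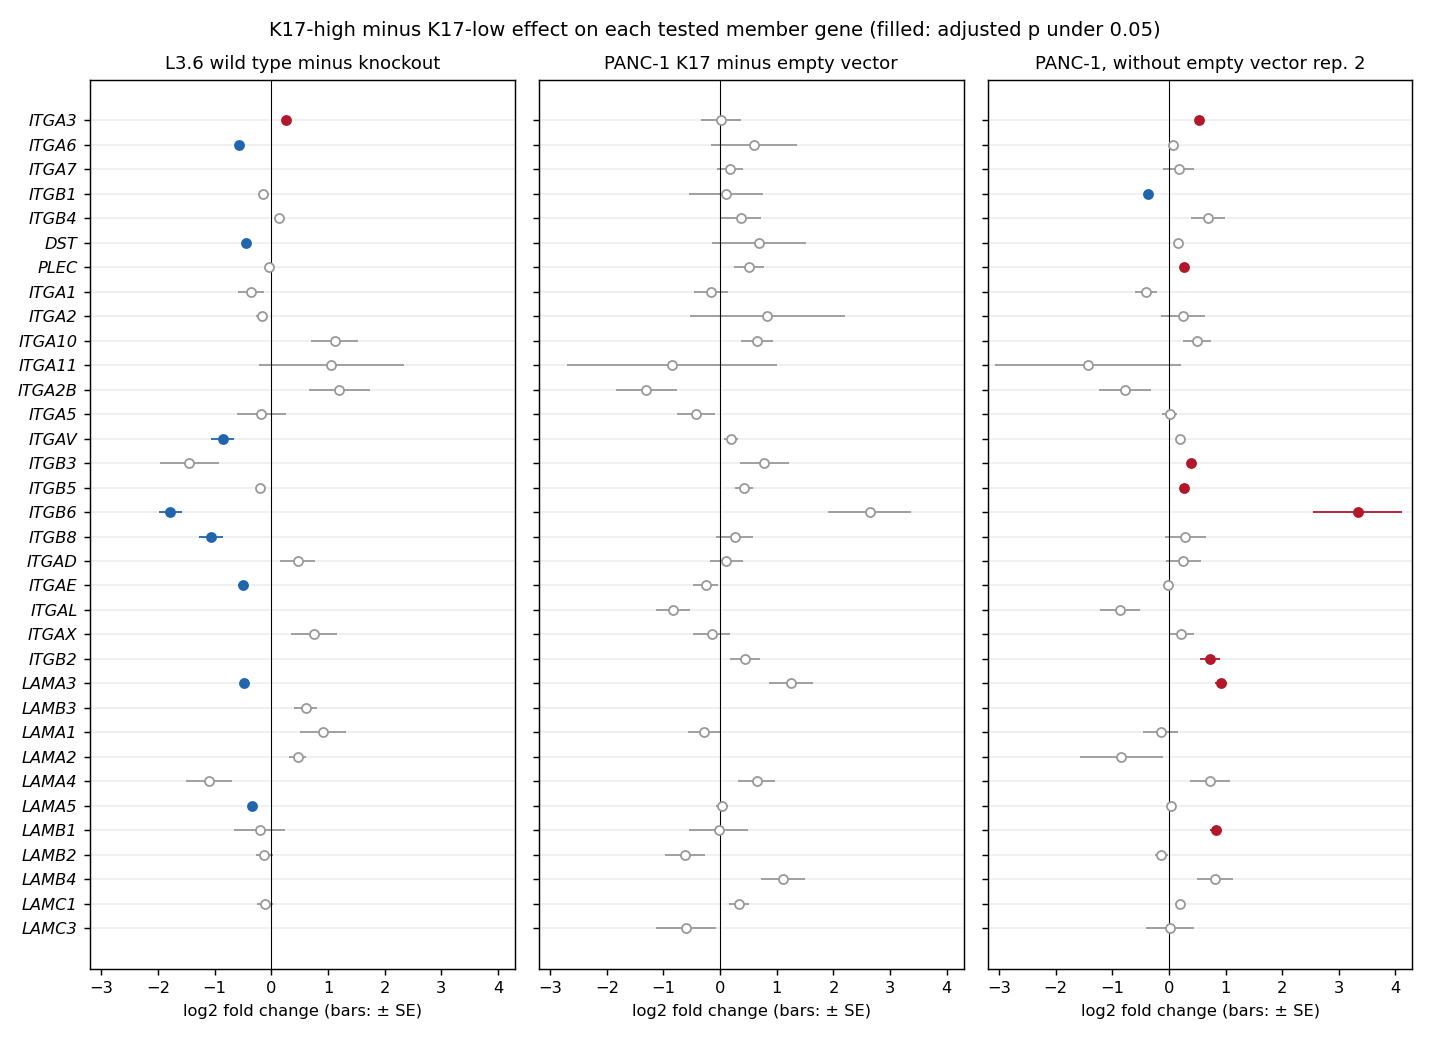
Log2 fold change (K17-high minus K17-low, bars ± SE) of each tested member gene, by role, in L3.6 and in PANC-1 with and without empty vector replicate 2; filled points passed an adjusted p of 0.05. ITGB6 lies far to the left in L3.6 (-1.78) and to the right in PANC-1, and the bars for DST, ITGA6 and ITGB1 in PANC-1 are wide when all libraries are used.

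Of the genes of laminin-332 chains, LAMA3 was lower in wild-type L3.6 and LAMB3 was not called. LAMA3, the alpha chain (ENSG00000053747.15, chr18:23689443-23956222), had 226, 237 and 269 CPM in the knockout and 187, 168 and 170 CPM in the wild type. The groups were apart, and the log2 fold change was -0.48 with an SE of 0.08 (edgeR adjusted p = 0.00722). LAMB3, the beta chain (ENSG00000196878.14, chr1:209614870-209652466), had 9.35, 9.57 and 13.5 CPM in the knockout and 13.6, 19.2 and 16.8 CPM in the wild type, a log2 fold change of 0.61 that did not pass (SE 0.20, edgeR adjusted p = 0.096). The nearest knockout and wild-type values of LAMB3 all but touched.

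Of the laminin chains outside laminin-332, 7 of 9 could be tested in L3.6 and 1 was called. LAMA5, the alpha chain of laminin-511 and laminin-521, had 686, 703 and 688 CPM in the knockout and 554, 516 and 561 CPM in the wild type, a difference of -0.35 on the log2 scale (SE 0.05, edgeR adjusted p = 0.00378). LAMA4 was at 26.8 CPM in the knockout and 12.7 CPM in the wild type, with a wide interval on the log2 fold change (-2.06 to -0.13) and an edgeR adjusted p of 0.141. LAMA2, the alpha chain of muscle laminin, was at 18.2 and 25.1 CPM (edgeR adjusted p = 0.0838). LAMC1, the gamma chain of most laminins, had a log2 fold change of -0.11 (95% interval -0.43 to 0.21).

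**Figure D2:**
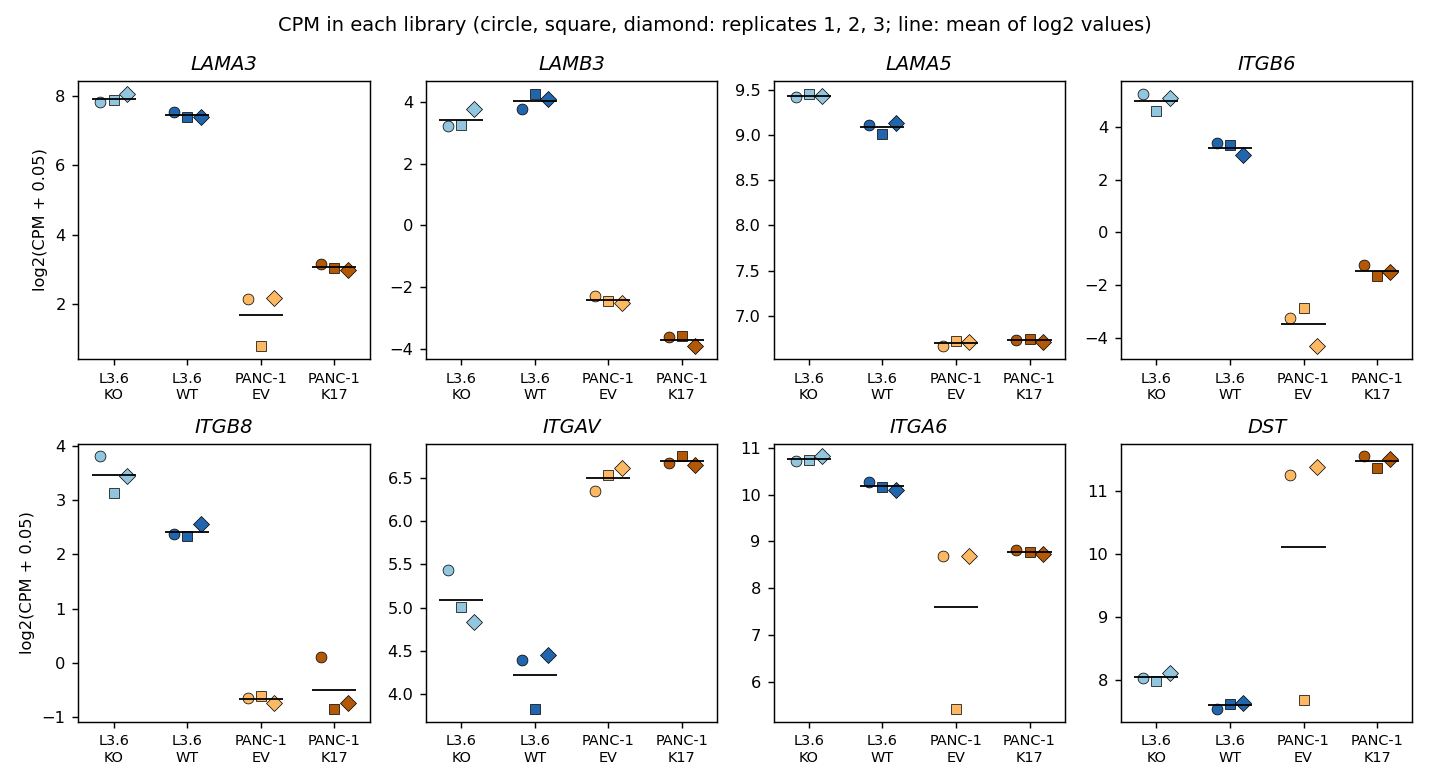
Level of 8 member genes in each of the 12 human libraries, as log2(CPM + 0.05), by group, with circles, squares and diamonds for replicates 1, 2 and 3 and a line at the mean of the log2 values. Wild-type LAMA5 and ITGB6 of L3.6 lie wholly below the knockout, and the square of PANC-1 empty vector replicate 2 lies far below the others for DST and ITGA6.

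Among the 4 hemidesmosome genes, ITGA6 and DST were lower in wild-type L3.6 and ITGB4 and PLEC were not called. ITGA6 (ENSG00000091409.14, chr2:172427354-172506282), the alpha chain of the laminin receptor of hemidesmosomes, had 1690, 1699 and 1805 CPM in the knockout and 1239, 1154 and 1093 CPM in the wild type. The log2 fold change was -0.57 (SE 0.06, edgeR adjusted p = 0.000922), with no overlap of the groups. Its partner ITGB4 (ENSG00000132470.13, chr17:75721328-75757818) had 1165, 1257 and 1229 CPM against 1410, 1336 and 1244 CPM. Those groups overlap, and the log2 fold change was 0.13 (95% interval -0.01 to 0.26, edgeR adjusted p = 0.197). The ratio of ITGA6 to ITGB4 counts was accordingly 1.35 to 1.47 in the knockout and 0.864 to 0.879 in the wild type. DST (ENSG00000151914.19, chr6:56457987-56954628), whose epithelial form anchors keratin at the hemidesmosome plaque, fell from 262, 253 and 276 CPM in the knockout to 186, 197 and 199 CPM in the wild type. Its log2 fold change was -0.44 (SE 0.05, edgeR adjusted p = 0.00189), and the gene-level row does not separate the epithelial from the neuronal and muscle forms. PLEC was at 1457 ± 31.1 and 1411 ± 82.7 CPM (SD, n = 3 each), and its log2 fold change was -0.05 (95% interval -0.17 to 0.08).

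ITGA3, the alpha chain of the laminin receptor outside hemidesmosomes, was the only member called higher in wild-type L3.6. It had 118, 111 and 111 CPM in the knockout and 124, 141 and 142 CPM in the wild type, a log2 fold change of 0.26 (SE 0.07) with an edgeR adjusted p of 0.0463, just inside the threshold. The call was lost in 8 of 12 alternatives, among them each L3.6 library left out other than wild-type replicate 1. ITGB1, the common beta chain that pairs with ITGA3, was at 61.2 ± 2.45 and 55.3 ± 7.12 CPM (SD, n = 3 each) and was not called (95% interval of the log2 fold change -0.36 to 0.08). ITGA7, the laminin-binding alpha chain of muscle, had 1 to 15 counts per library and was not tested in L3.6.

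Of the 8 genes of integrins that bind the RGD motif of fibronectin, vitronectin and latent TGF-beta, 7 were tested in L3.6 and ITGAV, ITGB6 and ITGB8 were called, all lower in the wild type. The products of ITGB6 and ITGB8 pair only with that of ITGAV, and both heterodimers are known to activate latent TGF-beta. ITGB6 (ENSG00000115221.11, chr2:160099666-160200313, minus strand) had 496, 336 and 437 counts in the knockout and 164, 91 and 90 in the wild type, or 38.3, 24.2 and 33.8 against 10.4, 9.87 and 7.61 CPM. It was 3.44-fold lower in the wild type, or -1.78 on the log2 scale (SE 0.20, edgeR adjusted p = 0.00146). ITGB8 had 14.0, 8.70 and 10.9 CPM in the knockout and 5.16, 4.99 and 5.84 CPM in the wild type, 2.10-fold lower (log2 fold change -1.07, SE 0.21, edgeR adjusted p = 0.0188). ITGAV had 43.3, 32.0 and 28.4 CPM in the knockout and 20.9, 14.1 and 21.7 CPM in the wild type, 1.82-fold lower (log2 fold change -0.86, SE 0.21, edgeR adjusted p = 0.0388). None of the 3 overlapped between the groups. The ITGAV call was lost in 5 of 12 alternatives and the ITGB8 call in 4 of 12. ITGB5, another partner of ITGAV, was at 81.9 ± 3.80 and 71.3 ± 6.31 CPM and did not pass (SD, n = 3 each, edgeR adjusted p = 0.146). ITGB3, ITGA5 and ITGA2B each averaged at most 2.39 CPM in both L3.6 groups, and none was called.

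The 4 alpha chains of collagen-binding integrins (ITGA1, ITGA2, ITGA10 and ITGA11) were tested in L3.6 and none was called. ITGA2, the most abundant of them, was at 50.9 ± 1.35 CPM in the knockout and 45.1 ± 5.79 CPM in the wild type (SD, n = 3 each, 95% interval of the log2 fold change -0.40 to 0.05). ITGA11 is not interpretable in these files: its counts were 0, 26 and 21 in the knockout libraries, 1, 32 and 47 in the wild type, 76, 0 and 69 in PANC-1 empty vector and 74, 0 and 0 in PANC-1 K17.

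Of the 7 genes of leukocyte integrins, 3 were tested in L3.6 and ITGAE was called. ITGAE encodes the alpha chain of the E-cadherin receptor of intraepithelial lymphocytes. It had 37.6, 39.1 and 38.5 CPM in the knockout and 27.6, 27.4 and 26.1 CPM in the wild type, a difference of -0.50 on the log2 scale (SE 0.08, edgeR adjusted p = 0.00696). ITGB7, the beta chain it pairs with, had 0 to 2 counts in each L3.6 library and was not tested. Immune markers were near 0 in L3.6: the 6 markers together reached 1.70 to 6.19 CPM in the knockout and 3.98 to 4.78 CPM in the wild type, and the T cell marker CD3E had 0 counts in all 12 libraries. The 5 endothelial markers together were at 3.95 to 4.87 CPM in the knockout and 10.3 to 14.5 CPM in the wild type, most of it PECAM1, and the 8 fibroblast markers were at 167 to 185 and 187 to 212 CPM. Within the fibroblast list COL1A1 was higher in the wild type (mean 141 against 107 CPM) and PDPN lower (17.4 against 31.3 CPM). The part of either marker set in the L3.6 results was not tested. In bulk RNA, fewer cells of a type and less RNA per cell cannot be told apart.

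Without wild-type replicate 1, 10 member genes were called lower and 4 higher in wild-type L3.6, where 10.6% and 6.61% of 14463 genes were. The 4 higher were ITGA3, ITGA10 (log2 fold change 1.39, edgeR adjusted p = 0.0462), LAMA2 (0.55, adjusted p = 0.0433) and LAMB3 (0.73, adjusted p = 0.0494). The lower calls then also took in ITGB1 (log2 fold change -0.27, edgeR adjusted p = 0.0392) and ITGB5 (-0.27, adjusted p = 0.0425). Leaving out any other single L3.6 library went the other way. It lowered the calls over all genes from 488 higher and 847 lower to 193 to 276 and 370 to 531.

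In PANC-1 with all 6 libraries, none of the 32 member genes tested passed the threshold, where 0.644% of all 16295 genes tested did (0.583% higher and 0.0614% lower). With unadjusted p-values of the same edgeR test 5 of the 32 were under 0.05. The share of all genes at that unadjusted threshold is not given here, so this count cannot be set against the 0.644%. DESeq2 called 1 member (ITGB6, higher with K17), where it called 448 higher and 147 lower of all 16295 genes. The K17 and empty vector values of 10 of the 32 did not overlap, against 25.6% of all genes tested. The spread within the empty vector group was large for the most abundant members. Empty vector replicate 2 had 205 CPM of DST where replicates 1 and 3 had 2454 and 2661, and 42.6 CPM of ITGA6 where they had 414 and 413. Of the 15 members with a mean of at least 5 CPM in replicates 1 and 3, 5 were more than 2-fold lower in replicate 2 and 4 were more than 2-fold higher. That is 60% of them outside 2-fold, where 28% of all 8682 genes at that level were. The lower ones were ITGA2 (2 counts against 535 and 883), DST, ITGA6, ITGB1 and ITGB3, and the higher ones LAMB1, ITGA3, LAMB2 and ITGA5.

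**Figure D3:**
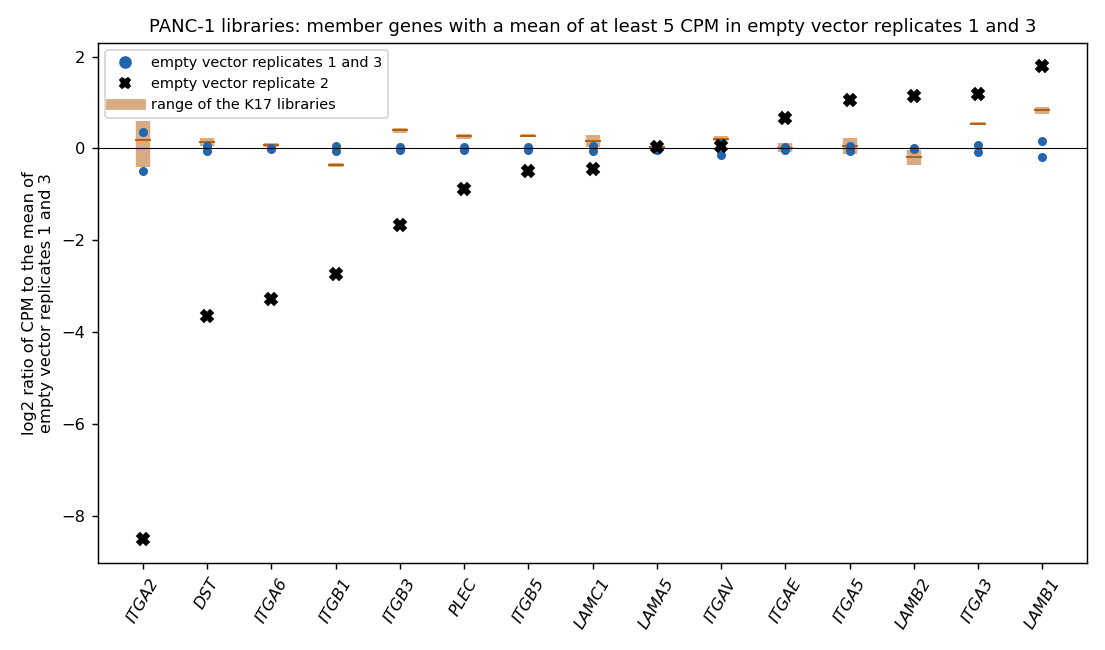
Log2 ratio of CPM to the mean of empty vector replicates 1 and 3 in PANC-1 for the 15 member genes at or above 5 CPM; dots are replicates 1 and 3, crosses replicate 2 and bars the range of the 3 K17 libraries. The cross for DST stands for a ratio of 0.0802 and that for LAMB1 for 3.46, while the K17 libraries lie close to replicates 1 and 3 for most genes.

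Without empty vector replicate 2, 8 of 33 member genes tested were higher with K17 in PANC-1 and 1 was lower, where 11.4% and 9.25% of all 16640 genes tested were. The 8 are LAMA3, LAMB1, PLEC, ITGA3, ITGB2, ITGB3, ITGB5 and ITGB6, and the lower one is ITGB1. The median log2 fold change was 0.20 over the 33 and 0.007 over all genes tested, and 17 of the 33 did not overlap between groups, against 48.3% of all genes. This comparison rests on 2 empty vector libraries.

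Of the laminin genes, LAMA3 had 4.33 and 4.42 CPM in the 2 empty vector libraries and 8.84, 8.20 and 7.82 CPM with K17. It was 1.89-fold higher, or 0.92 on the log2 scale (SE 0.11, edgeR adjusted p = 0.00132). With empty vector replicate 2 (1.66 CPM) the log2 fold change was 1.25 with an SE of 0.38 and an edgeR adjusted p of 0.329. LAMA3 was higher in every K17 library than in every empty vector library, replicate 2 included. LAMB3 had 11, 9 and 8 counts in the 3 empty vector libraries and 2, 2 and 1 with K17. It was too low for the test, and scaled to depth the 28 counts against 5 are a ratio of 5.07 (95% counting interval 1.93 to 16.8, exact Clopper-Pearson, for counting error only).

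LAMB1, the beta chain of laminin-111 and laminin-511, depended on replicate 2. It had 35.5 and 44.9 CPM in empty vector replicates 1 and 3, 139 CPM in replicate 2 and 68.1, 72.1 and 75.6 CPM with K17. The log2 fold change was -0.02 with all libraries (edgeR adjusted p = 0.989) and 0.84 without replicate 2 (SE 0.10, adjusted p = 0.00332). LAMA5, the most abundant laminin alpha gene per length in PANC-1, differed by less than the spread between libraries, at 101, 106 and 105 CPM in the empty vector libraries and 106, 107 and 105 CPM with K17 (95% interval of the log2 fold change without replicate 2 -0.03 to 0.11).

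Among the hemidesmosome genes of PANC-1, PLEC was called without replicate 2 and ITGA6, ITGB4 and DST were not. PLEC had 151 and 156 CPM in empty vector replicates 1 and 3, 82.8 CPM in replicate 2 and 191, 178 and 186 CPM with K17, a log2 fold change of 0.27 without replicate 2 (SE 0.04, edgeR adjusted p = 0.00324) and 0.51 with it (SE 0.26, adjusted p = 0.596). ITGA6 was at 414 and 413 CPM in replicates 1 and 3 and at 447, 438 and 424 CPM with K17, a difference with a 95% interval of 0.01 to 0.14 (log2) and an edgeR adjusted p of 0.125. DST was at 2454 and 2661 CPM and at 3001, 2643 and 2915 CPM with K17, where the groups overlap (adjusted p = 0.147). With replicate 2 the log2 fold changes of ITGA6 and DST were 0.59 (SE 0.76) and 0.69 (SE 0.83). ITGB4 was at 1.16 to 2.83 CPM in the empty vector libraries and 2.09 to 3.18 CPM with K17.

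Of the integrin genes outside hemidesmosomes, ITGB6 had the fewest counts of those called. It had 4, 6 and 0 counts in the empty vector libraries and 23, 16 and 19 with K17, a level of at most 0.373 CPM in any PANC-1 library. Scaled to depth, 58 counts with K17 against 10 without are a ratio of 6.40 (95% counting interval 3.24 to 14.0), and 10.6 (3.93 to 40.3) without replicate 2. The log2 fold change fitted without replicate 2 was 3.33 (SE 0.79, edgeR adjusted p = 0.0264), and the gene passed the filter on low counts through the K17 libraries. The call held in 5 of the 9 alternatives that gave an adjusted p, and the value was 2.42 without empty vector replicate 3 as well and 7.30 without replicate 1, where the one empty vector library kept had 0 counts. ITGA3 had 36.8 and 41.2 CPM in empty vector replicates 1 and 3, 89.2 CPM in replicate 2 and 55.2, 56.2 and 58.0 CPM with K17. Its log2 fold change was 0.53 without replicate 2 (SE 0.06, edgeR adjusted p = 0.000844) and 0.02 with it (adjusted p = 0.986). ITGB1 had 194 and 209 CPM in replicates 1 and 3, 30.2 CPM in replicate 2 and 153, 154 and 161 CPM with K17, which gave a log2 fold change of -0.37 without replicate 2 (SE 0.04, edgeR adjusted p = 0.001) and 0.11 with it (adjusted p = 0.957).

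ITGB3, the beta chain that forms the vitronectin receptor with ITGAV, had 26.7 and 25.5 CPM in empty vector replicates 1 and 3, 8.24 CPM in replicate 2 and 34.9, 32.9 and 35.7 CPM with K17 (log2 fold change without replicate 2 0.40, SE 0.06, edgeR adjusted p = 0.00394). ITGB5 had 61.6 and 59.7 CPM, 43.5 CPM and 73.5, 71.9 and 75.1 CPM in the same order (0.27, SE 0.04, adjusted p = 0.00324). With replicate 2 the log2 fold changes were 0.78 for ITGB3 and 0.42 for ITGB5 (edgeR adjusted p = 0.619 and 0.476). For both, every K17 library was above every empty vector library, replicate 2 included. ITGAV itself was at 81.8 to 97.9 CPM with the empty vector and 101 to 108 CPM with K17 and was not called (edgeR adjusted p = 0.121 without replicate 2 and 0.661 with it). ITGB8 was at 0.578 ± 0.0268 and 0.691 ± 0.287 CPM (SD, n = 3 each). ITGB2, the beta chain of leukocyte integrins, had 84, 139 and 79 counts with the empty vector and 112, 123 and 136 with K17, and its call without replicate 2 (log2 fold change 0.73, edgeR adjusted p = 0.0262, against 0.44 and 0.631 with it) held in 5 of 10 alternatives. Immune markers summed to 35.7 to 51.2 CPM with the empty vector and 35.3 to 42.5 CPM with K17, most of it CD68, with PTPRC at most 0.719 CPM. The 8 fibroblast markers together were at 26.3 to 44.2 CPM with the empty vector and 139 to 145 CPM with K17, most of it COL1A1. COL3A1, of the same list, went the other way, at a mean of 2.87 CPM with the empty vector and 0.399 CPM with K17. The part of these marker sets in the PANC-1 results was not tested.

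The effects of K17 in the 2 lines were compared in 1 edgeR fit of all 12 libraries, as the L3.6 difference minus the PANC-1 difference. Of 34 member genes tested, 2 were lower (ITGB6 and LAMA3) and 1 was higher (LAMB3), where 1.25% and 0.284% of all 17583 genes tested were (1.54% in all). ITGB6 differed by -4.35 (SE 0.66, edgeR adjusted p = 0.00745), a value that rests on few PANC-1 counts. LAMB3 differed by 2.85 (SE 0.43, adjusted p = 0.00761), but it entered this fit through its L3.6 counts, and in PANC-1 alone it was too low to be tested. LAMA3 differed by -1.72 (SE 0.36, adjusted p = 0.0426), a call lost in 11 of 17 alternatives, among them each L3.6 library left out. The ITGB6 and LAMB3 calls held in all 17. These alternatives reuse mostly the same libraries and the same few PANC-1 counts, so they are not independent of each other.

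Without empty vector replicate 2 the difference between the lines was called for 13 of 33 member genes tested, 12 lower and 1 higher, where 8.72% and 2.82% of 15758 genes were. LAMA3 was then at -1.47 (edgeR adjusted p = 9.73e-05), ITGB6 at -5.12 and LAMB3 at 2.77. The 10 further genes were DST, PLEC, ITGA3, ITGA6, ITGAE, ITGAV, ITGB3, ITGB5, ITGB8 and LAMA5, with values from -0.35 for ITGA3 to -1.90 for ITGB3. Of the 9 members called in L3.6 and the 9 called in PANC-1 without replicate 2, 3 were called in both lines, 33.3% of each. Of all genes, 501 were called in both, 37.5% of the 1335 called in L3.6 and 14.6% of the 3442 called in PANC-1, and 289 of the 501 had opposite directions. With K17, LAMA3 and ITGB6 were lower in L3.6 and higher in PANC-1, and ITGA3 was higher in both. Knockout in one line and over-expression in the other are different manipulations, and line and manipulation cannot be told apart.

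The levels of the 39 genes were also compared between the lines. The groups compared here, wild-type L3.6 and PANC-1 empty vector, differ in KRT17 itself. In the same fit, they differed in 22 of 34 member genes tested, 13 higher and 9 lower in L3.6, where 28.3% and 31.5% of 17583 genes were (59.8% in all), so the share of members called, 64.7%, was near that of all genes. Upper-quartile scaling, which moved the median log2 difference of all genes from -0.01 to 0.30, gave 15 higher and 8 lower. Some rows may count a fraction of their gene's reads, so levels between lines or genes are a description. ITGB4 was the member furthest apart, at 15076 to 17471 counts in L3.6 knockout, 12321 to 22136 in L3.6 wild type and 82 to 193 in PANC-1 of both groups. Its log2 difference was 8.89 (SE 0.37, edgeR adjusted p = 8.57e-09), and the ratio of ITGB4 to ITGB1 counts was 22.2 to 26.4 in wild-type L3.6 and at most 0.0938 in PANC-1.

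LAMB3 and LAMA3 differed in the same direction as ITGB4: the log2 differences were 6.42 and 5.23 (edgeR adjusted p = 1.38e-08 and 9.76e-08). LAMA2 (7.13), ITGB6 (7.02), PLEC (3.01), ITGB8 (2.75) and LAMA5 (1.94) were also higher in L3.6, as were ITGA1, ITGA3, ITGA6, ITGAD and LAMA4. PANC-1 was higher in ITGB3 (log2 difference -6.16), DST (-3.60), ITGAV (-2.71), LAMB1 (-2.63), ITGA5 (-2.57), ITGB2 (-2.57), ITGB1 (-1.80), ITGA10 (-0.97) and LAMC1 (-0.94). Leaving out empty vector replicate 2 kept the direction of these values and gave -1.62 for LAMB1, 7.83 for ITGB6, -4.04 for DST, -2.17 for ITGB1, 1.18 for ITGA6 and 1.48 for ITGA3. It also brought calls, higher in L3.6, for ITGA2 (1.76, edgeR adjusted p = 0.000389), ITGA2B (1.33, adjusted p = 0.0434) and LAMA1 (1.14, adjusted p = 0.0193). Over 17 alternatives the call was lost in 4 for ITGA6, 3 for ITGA10 and 2 each for ITGA3 and LAMA4, mostly with an L3.6 wild-type library left out.

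Per kilobase of annotated exon, with all 12 libraries scaled together, ITGB4 (169 CPM per kb), ITGA6 (153), PLEC (71.5) and LAMA5 (32.7) were the most abundant members in wild-type L3.6. In PANC-1 empty vector replicates 1 and 3 they were ITGA6 (72.0 CPM per kb), DST (68.7), ITGB1 (38.2) and ITGAV (12.4), with ITGB4 at 0.273. ITGA6, the partner of ITGB4, was thus high in both lines, while its other partner ITGB1 was at 7.92 CPM per kb in L3.6 and 38.2 in PANC-1. Of the laminin genes per kb, LAMA5 was highest in wild-type L3.6 and in PANC-1 empty vector replicates 1 and 3 (8.20, with LAMB1 at 5.61), but LAMB1 was above it with K17 (9.95 against 8.35) and in the mean of all 3 empty vector libraries (10.9 against 8.55). LAMA3 and LAMB3 were at 10.3 and 3.03 in wild-type L3.6 and at 0.339 and 0.0342 in PANC-1 empty vector replicates 1 and 3. These RNA levels do not measure how much of each chain the protein holds. ITGA8 had 0 counts in all 12 libraries (3 counts are the limit a count of 0 allows in each), and ITGA4, ITGA9, ITGAM and ITGB7 had at most 8 counts in any library.

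**Figure D4:**
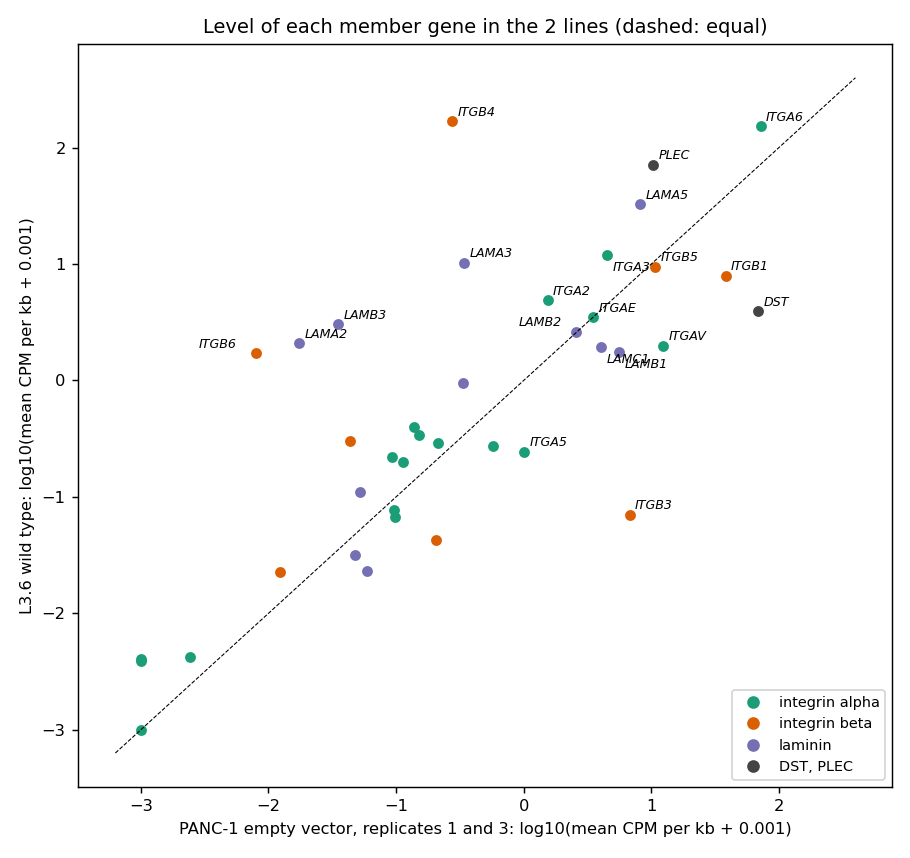
Level of each member gene in wild-type L3.6 (vertical axis) against PANC-1 empty vector replicates 1 and 3 (horizontal axis), as log10 of mean CPM per kb of exon plus 0.001, with the dashed line of equal levels. ITGB4, LAMA3, LAMB3, LAMA2 and ITGB6 lie far above the line and ITGB3 and DST far below it.

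Genes that work with integrins and laminins were read from lists. Of 30 tested genes of integrin adaptors and focal adhesions, 2 were higher and 5 lower in wild-type L3.6, where 3.51% and 6.1% of all genes tested were. The median log2 fold change of the 30 was -0.09. The 3 with the lowest p were TLN2, a talin that activates integrins (98.8 ± 2.24 against 64.9 ± 2.03 CPM in the knockout, log2 fold change 0.61), ACTN4, an actinin (-0.56), and TNS4, a tensin that binds integrin tails (0.90), with edgeR adjusted p = 0.000555, 0.00108 and 0.00205 (SD, n = 3 each). In PANC-1 none of 31 passed with all libraries (edgeR, where 0.644% of all genes did). Without empty vector replicate 2, 10 were higher and 3 lower, where 11.4% and 9.25% of all genes tested were. Among the 31, TLN2 (1.19), FERMT1 (1.64) and LIMS1 (-0.25) were then called.

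Of all genes tested in L3.6, 6.1% were lower in the wild type and 3.51% higher. Of 10 tested partners of hemidesmosomes and laminins outside the 39 genes, 3 were lower in wild-type L3.6 and none higher. They were BCAM, a receptor for the LAMA5 chain (427 ± 36.2 against 856 ± 27.3 CPM, edgeR adjusted p = 0.000103), COL7A1, the anchoring fibril collagen (-0.82, adjusted p = 0.00344), and CD151, a tetraspanin bound to laminin receptors (-0.46, adjusted p = 0.00306, SD, n = 3 each). In PANC-1 none of 7 passed with all libraries, where 0.644% of all genes did. BCAM (0.88) and SDC4 (0.29) were higher without replicate 2, where 11.4% of all genes tested were. The difference of the BCAM effects between the lines was -1.31 with all libraries (edgeR adjusted p = 0.183) and -1.95 without replicate 2 (adjusted p = 5.34e-06).

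Of 11 tested basement membrane genes outside the laminins, 1 was higher and none lower in wild-type L3.6, where 3.51% and 6.1% of all genes tested were. It was COL4A6 (211 ± 6.81 against 145 ± 6.18 CPM, SD, n = 3 each, log2 fold change 0.55, edgeR adjusted p = 0.000751). In PANC-1 none of 10 passed with all libraries, where 0.644% of all genes did. Without replicate 2, 2 of the 10 were higher and 1 was lower, where 11.4% and 9.25% of all genes tested were. The higher ones were COL18A1 (0.41) and NTN4 (0.80), and the lower one was NID1 (-0.73), which joins laminin to collagen IV. Of 15 tested integrin ligands outside laminin, 3 were higher and 3 lower in wild-type L3.6, where 3.51% and 6.1% of all genes tested were. THBS1, thrombospondin 1, was at 819 ± 74.5 CPM without K17 and 201 ± 23.7 CPM with it (SD, n = 3 each, log2 fold change -2.03, edgeR adjusted p = 4.38e-05). TGFB1, whose latent form is a ligand of ITGAV integrins, was lower in the wild type (-0.58, adjusted p = 0.00196), and SPP1, osteopontin, was higher (1.78, adjusted p = 0.0178). In PANC-1 with all libraries COL1A1 was the one ligand called, at 140 ± 3.08 against 28.1 ± 10.5 CPM (SD, n = 3 each, log2 fold change 2.31, edgeR adjusted p = 0.0393). Without replicate 2, 2 ligands were higher and 4 lower, where 11.4% and 9.25% of all genes tested were. The ligands called then included COL1A1 (2.66), MFGE8 (-0.54) and THBS1 (-0.34). The difference of the THBS1 effects between the lines was -2.00 (edgeR adjusted p = 0.0184). That of COL1A1, which was higher with K17 in both lines (0.41 in L3.6, adjusted p = 0.0211), was -1.85 (adjusted p = 0.0189).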

How the data were processed

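TRIzol RNA of cultured cells went into TruSeq RNA libraries, per the labels' protocols. The authors deposited whole-number counts per gene for each sample, with no normalization, on GRCh38. Per the submitters' processing notes, STAR 2.7.3a, kallisto 0.46.2 and bcl2fastq 1.8.4 were among the tools. The tool that counted, its annotation, its strand setting and its handling of multi-mapping reads are not stated in any source used here. Hence overlapping and antisense genes are uncertain. A row may count only some of its gene's reads: TUBB, a tubulin gene looked at because of earlier results, had 0 counts in 6 PANC-1 libraries, and EEF2, an elongation factor gene, had 32 to 53 in the L3.6 libraries and 10960 to 27520 in the PANC-1 libraries.

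Of 34505 identifiers 34474 were named by GENCODE 29, which gave coordinates and exon lengths. Both lines were fitted separately in R 4.3.3 with edgeR 4.0.16 (quasi-likelihood test with robust spread, TMM factors, filterByExpr, Benjamini-Hochberg adjustment over all genes kept, threshold 0.05). The difference between lines and the comparison of their levels came from 1 fit of 12 libraries. CPM uses TMM-scaled library sizes. Groups came from the sample titles. Alternatives were DESeq2 1.42.0, upper-quartile and RLE factors, no filter on low counts, the replicate number as a block, each library left out and 1 fit of the 4 groups. Counts were simulated with 100 genes changed 2-fold and 100 changed 4-fold. In the L3.6 design 58 and 86 of these were found (13891 genes, 20 of 164 calls wrong). In PANC-1 2 and 67 were found (16295 genes, 8 of 77 wrong). In PANC-1 without empty vector replicate 2 it was 86 and 97 (16640 genes, 18 of 201 wrong). The share of wrong calls was above 0.05 in each design, so calls near the threshold need caution.

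The 39 genes, their roles, the other lists and the tests were chosen with earlier results of these data known. Values per library are given for members past the threshold in a line and for the most abundant of each role, and from each other list at most the 3 genes with the lowest p per line. Of the marker lists, the 5 epithelial markers summed to 3138 to 4009 CPM in L3.6 and 927 to 1741 in PANC-1, the 3 squamous ones to 278 to 414 and 0.141 to 0.339, and the 5 acinar or islet ones to at most 0.217 CPM. The squamous marker DSG3 and 1 integrin ligand were not analysed here, and a few other genes that the name rule or the lists take are not reported here.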

Additional observations from a re-analysis of the deposited data

Results flagged for a closer look

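In 3 genes the effect of K17 differed between L3.6 and PANC-1 by a test of the difference itself (edgeR quasi-likelihood test over the 12 libraries, L3.6 minus PANC-1, log2 scale): ITGB6 by -4.352, LAMA3 by -1.722 and LAMB3 by 2.855. The adjusted p-values were 0.00745, 0.0426 and 0.00761. In L3.6 these genes were at -1.78, -0.48 and 0.61. In the PANC-1 libraries ITGB6 had 0 to 23 counts and LAMB3 1 to 11. LAMB3 was too low to be tested in PANC-1 alone and entered the joint fit through its L3.6 counts, so the call rests on a PANC-1 effect that has no test of its own. The knockout and the over-expression were made in different lines.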

How the results depend on the processing

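Of the single-gene values recomputed under the alternatives, 2004 kept their direction and side of the threshold. A further 69 changed direction without passing the threshold in either fit. Another 53 came to pass the threshold and 53 no longer passed it. The remaining 3 reversed, which here means a change of direction with a pass in the main fit or the alternative. All 3 reversals came without PANC-1 empty vector replicate 2: ITGB1 in PANC-1 (-0.373, and up to 0.466 with another library left out), LAMB1 in PANC-1 (0.838) and the difference between lines of ITGA3 (-0.35, and up to 0.433). The 2004 include values not called in either fit. For members called in the main fit, 86 values kept the call and 22 lost it in L3.6. In PANC-1 without empty vector replicate 2 it was 80 and 9. For the difference between lines it was 40 and 11, and for levels between lines 363 and 11. In L3.6 the 1 member called higher became 0 with no filter, with the replicate block and in 1 fit of the 4 groups, and ranged from 0 to 4 with 1 library left out. The 8 called lower ranged from 6 to 10 with 1 library left out and became 1 in 1 fit of the 4 groups. In PANC-1 the 0 higher became 1 with DESeq2 and 2 in 1 fit of the 4 groups (ITGB6 and LAMA3), the 0 lower became 1 there (LAMB3), and with 1 library left out they were 0 to 8 and 0 to 1. Without empty vector replicate 2 they were 8 and 1, and leaving out a further library gave 6 to 8 and 1 to 2. The 2 members with a lower difference between lines were 8 with DESeq2, 1 with upper-quartile factors, 1 with the replicate block and 1 to 12 with 1 library left out (12 without empty vector replicate 2). The 13 members higher and 9 lower in L3.6 than in PANC-1 were 10 to 16 and 8 to 10. The cause was not tested.

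Upper-quartile factors moved the calls over all genes from 488 higher and 847 lower to 639 and 706 in L3.6, from 1902 and 1540 to 1549 and 2193 in PANC-1 without empty vector replicate 2, and from 4971 and 5535 to 6308 and 4416 between the lines. DESeq2 called 448 higher and 147 lower in PANC-1, where edgeR called 95 and 10. Deviations of libraries with the same replicate number were weakly correlated (-0.121, -0.039 and 0.022 in L3.6 and 0.053, 0.086 and 0.022 in PANC-1). With 3 libraries per group and empty vector replicate 2 apart, these values cannot settle whether the numbers pair the samples. With the replicate number as a block, 0 members were higher and 8 lower in L3.6, 0 and 0 in PANC-1, 7 and 1 in PANC-1 without empty vector replicate 2, and 1 and 1 for the difference between lines. Over all genes the block gave 224 higher and 441 lower in L3.6, and 0 and 0 in PANC-1. In 1 fit of the 4 groups 63 genes were higher and 141 lower in L3.6, and 286 and 77 in PANC-1. With 1 library left out, L3.6 calls ranged from 193 to 956 higher and 370 to 1537 lower, and PANC-1 calls from 0 to 1902 and 0 to 1540, of which 1 and 0 were the most with empty vector replicate 2 kept. For the difference between lines DESeq2 called 185 higher and 598 lower, where edgeR called 50 and 220. Low counts limit ITGB6, LAMB3 and LAMA2 in PANC-1 and the members not tested.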
